A study of Mus musculus with 4 samples.

Results

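The transcripts described here are 36 genes of macrophages and related myeloid cells, measured in 4 mouse tumors. They were picked by gene symbol, and each was read from its probe set of highest mean signal among those annotated to exactly 1 gene. All 36 had such a probe set, out of 12393 genes on the array, and 33 passed the filter on low signals used for testing. The 3 that did not pass were Itgam, Cd163 and Arg1.

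Tumors were grown under the skin of nude (NCR Nu/Nu) mice from iBMK cells, an immortalized line of mouse kidney epithelial cells that carries Bcl-2 and lacks ATG5 (ATG5-/-). The cells of 2 tumors expressed p62-EGFP, the autophagy adaptor p62 fused to enhanced green fluorescent protein, while the remaining 2 carried EGFP alone. Loss of ATG5, Bcl-2 and the nude host were shared by all 4. The labels do not say if tumors with the same construct grew in different mice or from different cultures, if a line was 1 clone, or how old the mice were, so p-values measure only the spread between these tumors. Each tumor was read on 1 array, and values are the authors' scaled signals.

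Macrophages are phagocytes that enter or reside in tissues and depend on the growth factor receptor Csf1r and on the transcription factor Spi1 (PU.1). They bind antibody-coated particles through Fc receptors, of which activating ones signal through Fcer1g, a small adaptor with an ITAM motif. Tyrobp is an ITAM adaptor used by other receptors. Macrophages digest what they engulf with lysosomal enzymes. Nude mice lack a normal thymus and most T cells but keep macrophages and NK cells. These genes are used as markers of blood-derived cells, but the line was not measured apart from its host here. In a bulk tumor, fewer cells of a type cannot be told apart from less RNA per cell.

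Sqstm1, which encodes p62, read 1433 and 1688 in the p62-EGFP tumors, against 976 and 1156 in the EGFP tumors, and did not pass the test (log2 difference 0.54, SE 0.14, limma adjusted p = 0.235). No label says whether the Sqstm1 probes read the transgene or whether the Atg5 probes fall in the deleted stretch, so neither gene checks the labels. Atg5 read 91.3 and 93.9 in the p62-EGFP tumors, against 119 and 103 in the EGFP tumors. The SD of the difference between 2 tumors over the tested probe sets was 0.273 for the p62-EGFP pair and 0.604 for the EGFP pair on the log2 scale. EGFP tumor 2 stood apart from EGFP tumor 1 for the genes described below, and each result that rests on either tumor is given with and without it.

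The promoters of myeloid genes often hold sites for PU.1, which binds purine-rich sequences around GGAA. The motif GAGGAAG was searched on both strands of the 300 bases from 250 before to 50 after each start site in the RefSeq table (build GRCm38.p6), where 25 of the 36 genes had an entry. It was present for 8 of the 25 (32.0%), against 15.4% of all 27025 gene symbols in the table. The 8 were C1qc, Cd53, Ctss, Fcgr1, Fcgr3, Itgam, Laptm5 and Mrc1. The windows of 5 of them are shown because these genes rose in the p62-EGFP tumors against EGFP tumor 1, as described further on. They run 5′ to 3′ on the strand of the gene, with the motif in capitals, here always as its reverse complement. They lie at chr4:136893072-136893138 (minus strand) for C1qc, chr3:95526755-95526821 (plus) for Ctss, chr3:96293989-96294055 (minus) for Fcgr1, chr1:171059374-171059440 (minus) for Fcgr3 and chr4:130913247-130913313 (plus) for Laptm5.
C1qc: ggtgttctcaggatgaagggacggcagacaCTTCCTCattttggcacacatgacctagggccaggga
Ctss: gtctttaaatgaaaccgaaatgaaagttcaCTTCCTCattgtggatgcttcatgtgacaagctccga
Fcgr1: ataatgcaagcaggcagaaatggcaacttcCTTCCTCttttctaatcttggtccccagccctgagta
Fcgr3: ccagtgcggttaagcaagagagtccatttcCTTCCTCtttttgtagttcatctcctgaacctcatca
Laptm5: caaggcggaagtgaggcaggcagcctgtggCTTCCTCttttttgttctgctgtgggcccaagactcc
Counted from the start site, with bases before it negative, the first base of the match lay at -194 in C1qc, -56 in Fcgr1, -39 in Laptm5, -7 in Fcgr3 and -1 in Ctss. A match is a run of letters, not a measured binding site. Cd53 and Mrc1 also held the motif but did not pass against EGFP tumor 1, and Itgam was too dim to be tested. Any relation of the motif to the rise was not tested.

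The markers Ptprc, Tyrobp and Aif1 gave signal in every tumor, and in each the p62-EGFP pair lay between EGFP tumor 1 and EGFP tumor 2. Ptprc, the phosphatase CD45 of all leukocytes, read 95.9 and 115 in the p62-EGFP tumors, against 60.8 and 1264 in the EGFP tumors. Tyrobp, a signalling adaptor (DAP12) used by receptors on myeloid and NK cells, read 177 and 184 in the p62-EGFP tumors, against 113 and 1111 in the EGFP tumors. Aif1 is the macrophage actin-binding protein IBA1, and its probe set is of a type marked as able to bind other transcripts. It read 43.8 and 43.6 in the p62-EGFP tumors, against 20.9 and 516 in the EGFP tumors. EGFP tumor 1 was thus lowest, the p62-EGFP tumors lay close together just above it, and EGFP tumor 2 was far above all others.

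This order held for most of the 36 genes, as the plot of signals by tumor shows. Both p62-EGFP tumors lay above EGFP tumor 1 and below EGFP tumor 2 for 31 of the 36, an order found for 8.71% of all genes. Both lay above EGFP tumor 1 for 34 genes, against 41.2% of all genes, and both below EGFP tumor 2 for 33, against 33.1%. The 5 exceptions to the order were Fcgr2b, Cd14, Cd163, Cx3cr1 and Arg1. EGFP tumor 2 had the highest signal for 33 genes, and EGFP tumor 1 the lowest for 33. On the log2(signal + 16) scale the p62-EGFP tumors differed from each other by less than 2-fold for all 36, by -0.26 to 0.88. On that scale 0.323% of all genes were past 2-fold higher and 0.403% past 2-fold lower in p62-EGFP tumor 2. In plain signal the pair differed by more than 2-fold for Arg1 (10.7 and 33.2) and Cd163 (11.3 and 28.6), both below the filter.

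**Figure D1:**
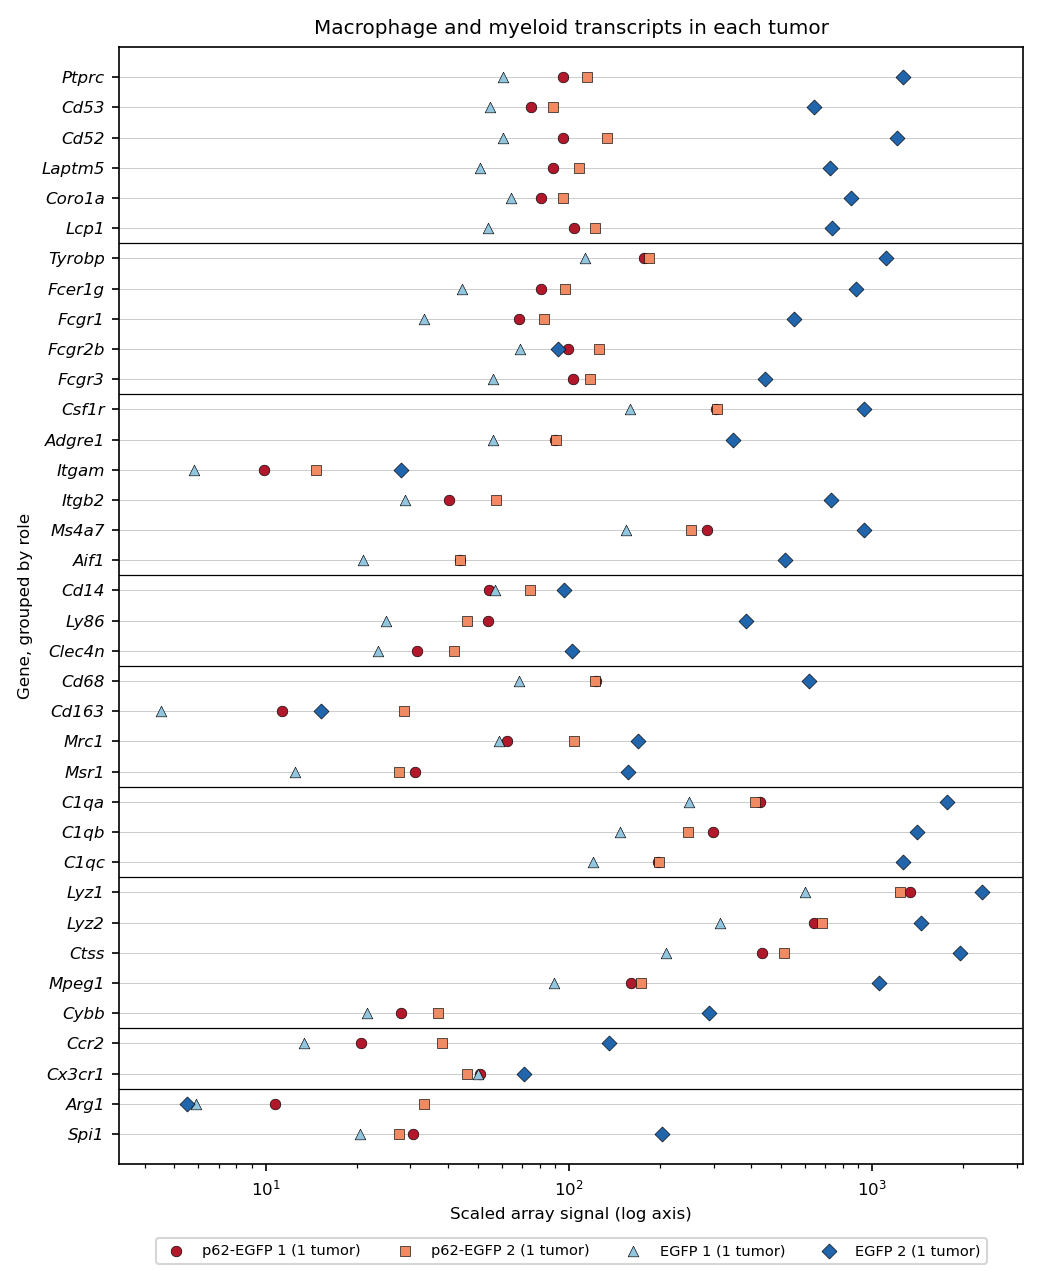
Signal of each of the 36 genes (rows, grouped by role between the lines) in each tumor (1 point each), on a log axis of scaled array signal. For 31 genes both p62-EGFP points lie between the point of EGFP 1 on their left and that of EGFP 2 on their right, and Fcgr2b and Arg1 have both p62-EGFP points to the right of both EGFP points.

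Over all 4 tumors no member passed the comparison of the p62-EGFP with the EGFP group by limma's moderated test with Benjamini-Hochberg adjustment. Of the 33 tested, 0 passed in either direction, and 0 had an unadjusted p below 0.05, against 8.5% of tested genes higher and 6.3% lower at that level. Over all 7846 tested genes, 0.051% passed with p62-EGFP higher and 0% with p62-EGFP lower. Adjusted p-values of the members ran from 0.421 for Fcgr2b to 0.987 for Lyz2. The log2 difference was below 0 for 32 of the 36, with a median of -0.70, against 0.03 over all genes. The difference between the EGFP tumors was larger than the group difference for 34 of the 36.

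The groups did not overlap for 2 genes, Fcgr2b and Arg1, both with p62-EGFP above. Over all genes 26.8% had both p62-EGFP tumors above both EGFP tumors, and 18% had both below, a place that 0 of the 36 genes took. The count of 2 is therefore well under the background share.

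The difference between the EGFP tumors was itself the main feature of these genes. EGFP tumor 2 exceeded EGFP tumor 1 by more than 2-fold for 31 of the 36 and fell short of it by as much for 0, against 5.26% and 1.23% of all genes, with a median log2 difference of 2.83 over the 36 and of -0.03 over all genes. In plain signal the ratio of EGFP tumor 2 to EGFP tumor 1 was above 10 for 16 genes. When the 12393 genes were ordered by this difference, the first 100 held 17 of the 36 and the first 200 held 26. These are single tumors, so no test applies to the difference between them.

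**Figure D2:**
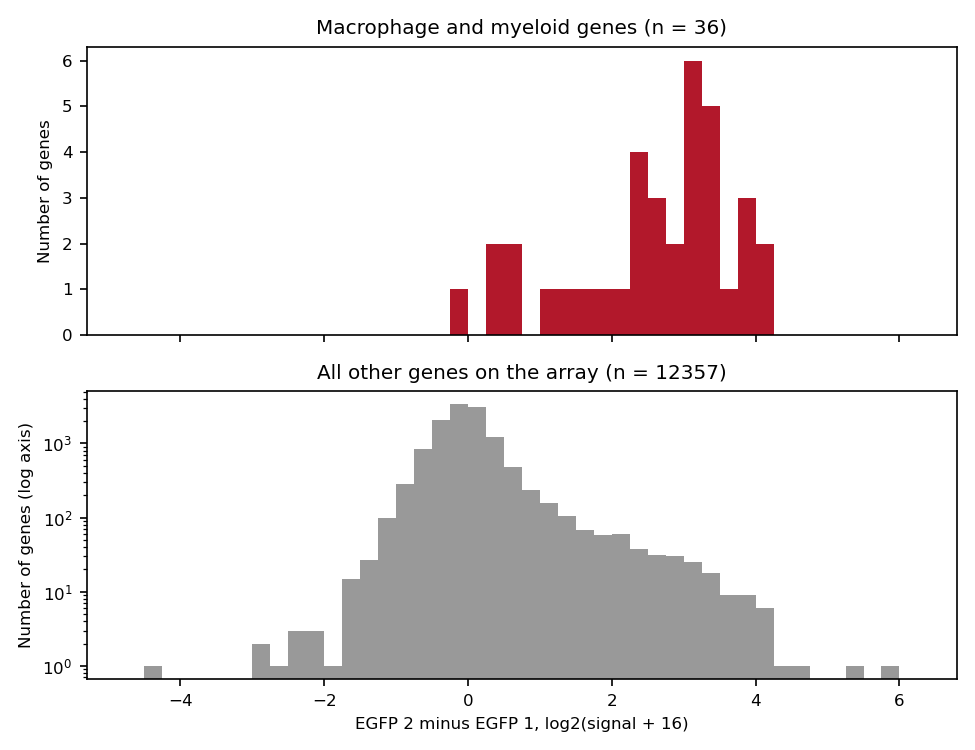
Number of genes by the difference between EGFP tumor 2 and EGFP tumor 1 on the log2(signal + 16) scale, for the 36 macrophage and myeloid genes (upper panel) and all other genes (lower panel, log axis). The 36 genes have a median of 2.83 and the distribution of all genes is centred near 0, with a tail to the right.

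The largest differences within the EGFP pair belonged to leukocyte adhesion and signalling genes. Itgb2, the CD18 subunit shared by the leukocyte integrins, read 40.1 and 57.6 in the p62-EGFP tumors, against 28.7 and 731 in the EGFP tumors. Cd52, a short glycoprotein anchored to the leukocyte surface, read 95.8 and 134 in the p62-EGFP tumors, against 60.4 and 1206 in the EGFP tumors. With Ptprc these were the 3 members with the widest gap, at 4.06 for both Itgb2 and Ptprc and just below that for Cd52 on the log2 scale. In each, the p62-EGFP tumors sat near the low EGFP tumor.

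The smallest differences within the EGFP pair belonged to Arg1, Fcgr2b and Cx3cr1. Arg1, the arginase found in some activated macrophages, read 10.7 and 33.2 in the p62-EGFP tumors, against 5.9 and 5.5 in the EGFP tumors. It was too dim to be tested, and the p62-EGFP tumors differed most from each other here. Cx3cr1, the receptor for fractalkine on monocytes and resident macrophages, read 51.1 and 46.0 in the p62-EGFP tumors, against 50 and 71.1 in the EGFP tumors. The p62-EGFP tumors lay on both sides of EGFP tumor 1 for Cx3cr1, and no difference was detected against either EGFP tumor (limma adjusted p = 0.933 against EGFP tumor 1 and 0.129 against EGFP tumor 2).

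Because the EGFP tumors stood so far apart, the p62-EGFP pair was also set against each EGFP tumor alone. In these fits the spread comes from the p62-EGFP pair only, the lone EGFP tumor is assumed to vary as that pair does, and the EGFP pair varied more, so their p-values understate the error. The log2 difference from EGFP tumor 1 was above 0 for 35 of the 36, where 53.5% of all genes lay above 0 and 46.4% below. Against EGFP tumor 1, 17 of the 33 tested members rose and 0 fell, where 5.12% of tested genes rose and 4.58% fell (limma, adjusted p below the 0.05 threshold). The 17 rose by 0.61 to 1.11 on the log2 scale, with adjusted p-values from 0.00122 to 0.0481. Against EGFP tumor 2, 30 of the 33 passed as lower and 0 as higher, where 10.8% of tested genes passed as lower and 11.4% as higher. For 5 of the 30, Msr1, Ccr2, Spi1, Cybb and Clec4n, this call is built in, because the mean of the other 3 tumors lay below the filter and the gene was tested only through its high signal in EGFP tumor 2. Among the 28 members that reached the filter without EGFP tumor 2, 25 fell and 0 rose, where 9.59% of such genes fell and 11.7% rose. The 25 differed by -3.54 to -0.83 on the log2 scale. All 17 genes that rose against EGFP tumor 1 were among these 25, and so were higher than one EGFP tumor and lower than the other.

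**Figure D3:**
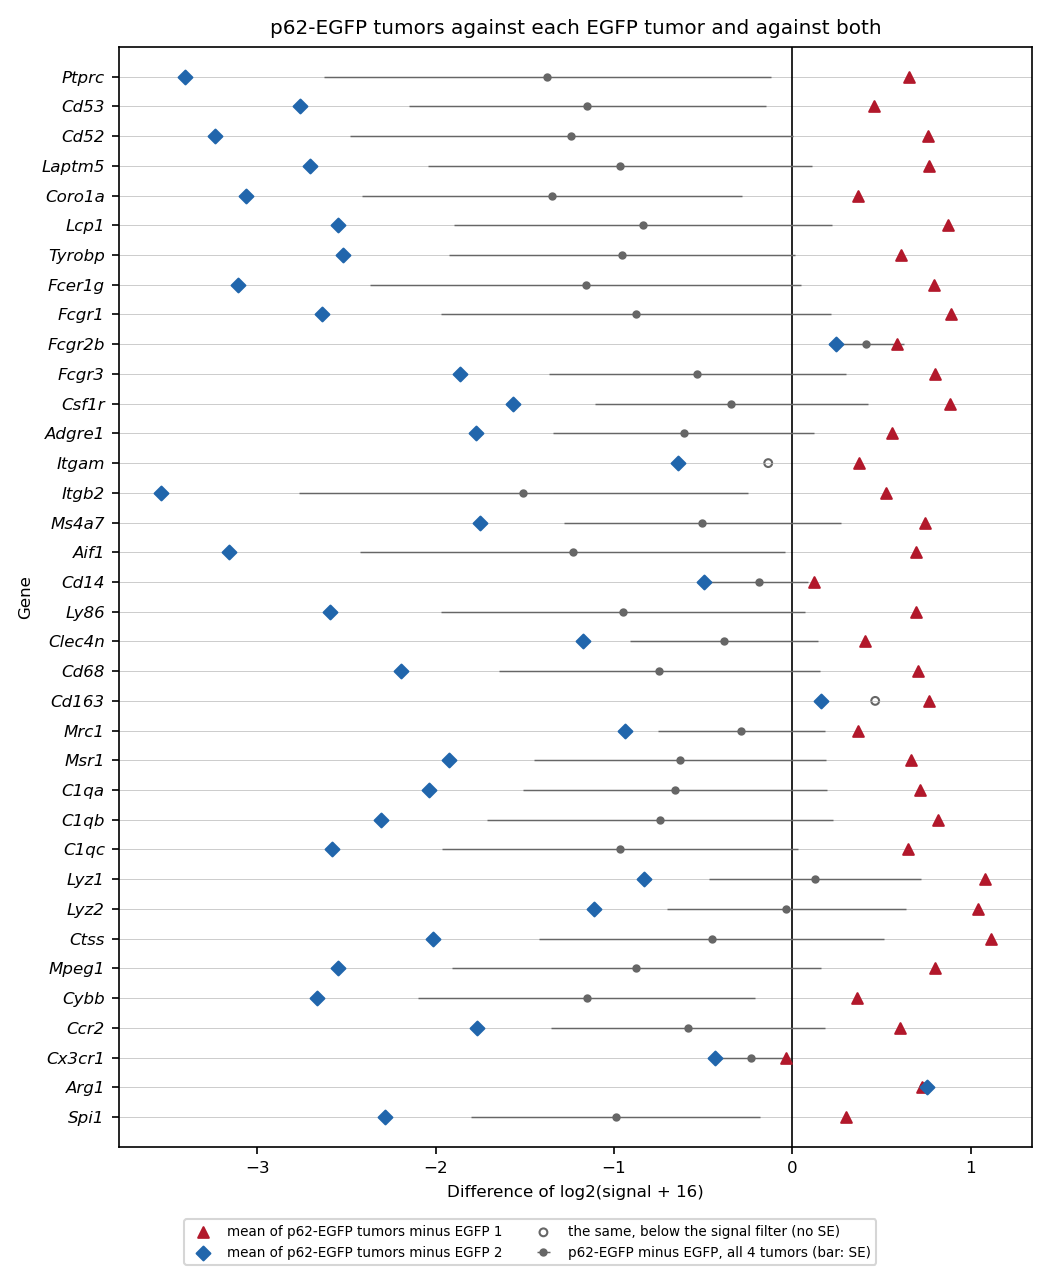
Difference of the p62-EGFP tumors from EGFP 1 alone (triangles), from EGFP 2 alone (diamonds) and from both (circles with SE bars) for each of the 36 genes, in log2(signal + 16). Triangles lie right of 0 for all genes but Cx3cr1, while diamonds lie left of 0 for all but Fcgr2b, Cd163 and Arg1.

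Among the proteins shared by all leukocytes, 3 of 6 rose against EGFP tumor 1, namely Cd52, Laptm5 and Lcp1. The calls of Laptm5 and Lcp1 rest on their brightest probe set, since the other 2 of Laptm5 (limma adjusted p = 0.739 and 0.348) and the other of Lcp1 (0.260) did not pass. Lcp1, which bundles actin filaments, read 104 and 122 in the p62-EGFP tumors, against 54.2 and 737 in the EGFP tumors, and its log2 difference from EGFP tumor 1 was 0.88 (SE 0.18, limma adjusted p = 0.0181). Laptm5, a lysosomal membrane protein of blood cells, read 88.6 and 108 in the p62-EGFP tumors, against 50.9 and 726 in the EGFP tumors. All 3 Laptm5 probe sets are of types marked as able to bind other transcripts. Cd53, a tetraspanin, read 75.2 and 88.3 in the p62-EGFP tumors, against 54.9 and 644 in the EGFP tumors. Ptprc, Cd53 and Coro1a, a regulator of the actin cortex, did not pass against EGFP tumor 1 (limma adjusted p = 0.0511, 0.145 and 0.228).

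Of the Fc receptors and ITAM adaptors, Tyrobp, Fcer1g, Fcgr1 and Fcgr3 rose against EGFP tumor 1 and fell against EGFP tumor 2. Fcer1g, the common gamma chain of activating Fc receptors, read 80.9 and 96.9 in the p62-EGFP tumors, against 44.4 and 887 in the EGFP tumors. Fcgr1, the high-affinity IgG receptor, read 68.3 and 82.6 in the p62-EGFP tumors, against 33.3 and 552 in the EGFP tumors. Fcgr3, a low-affinity activating receptor, read 103 and 117 in the p62-EGFP tumors, against 56.4 and 443 in the EGFP tumors. All these activating components were highest in EGFP tumor 2.

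Fcgr2b, the inhibitory IgG receptor, was not highest in EGFP tumor 2. Its brightest probe set read 99.4 and 126 in the p62-EGFP tumors, against 69.2 and 91.8 in the EGFP tumors. Its log2 difference between the groups was 0.42 (SE 0.21) and did not pass (limma adjusted p = 0.421). Each of its other 3 probe sets also had both p62-EGFP tumors above both EGFP tumors, with log2 differences of 0.61, 0.79 and 0.69 (limma adjusted p = 0.351, 0.314 and 0.275). Against EGFP tumor 1 alone these 3 rose like the activating receptors, with log2 differences of 0.91, 1.14 and 0.88 (limma adjusted p = 0.0140, 0.00767 and 0.0196), while the brightest did not pass (0.59, limma adjusted p = 0.0795). The brightest of the 3 read 102 and 110 in the p62-EGFP tumors, against 48.9 and 83.1 in the EGFP tumors. EGFP tumor 2 exceeded EGFP tumor 1 by only 0.34 on the log2 scale at the brightest Fcgr2b probe set, against 2.67 for Fcgr3, its neighbour in function. Fcgr2b and Fcgr3 are related in sequence, and 2 of the Fcgr2b probe sets are of types marked as able to bind other transcripts. The difference of Fcgr2b from the other receptors was not tested.

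**Figure D4:**
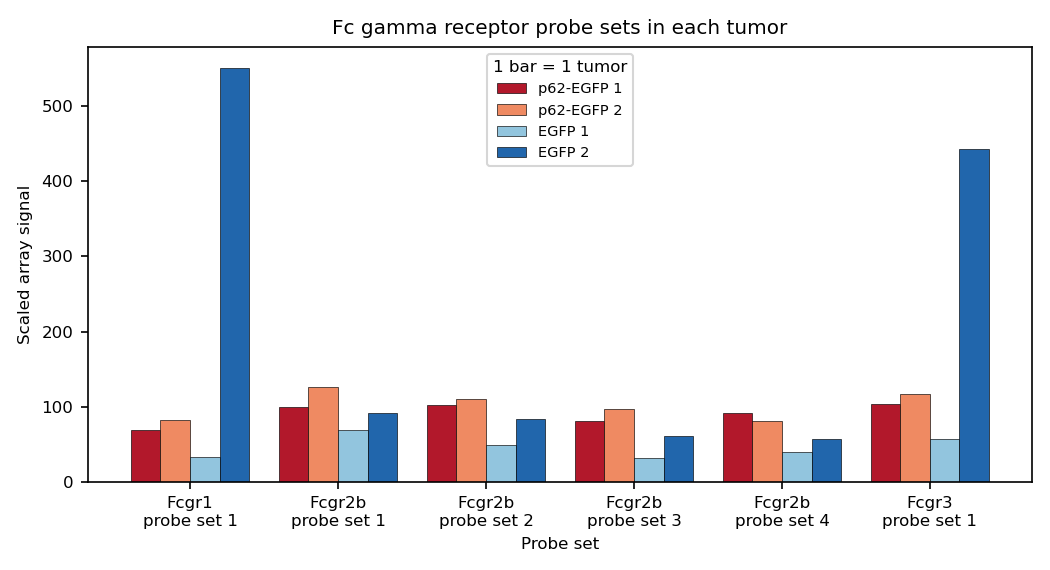
Scaled signal of the probe sets of 3 Fc gamma receptor genes (bars, 1 per tumor, from 0). All 4 Fcgr2b probe sets have both p62-EGFP bars above both EGFP bars, while for Fcgr1 and Fcgr3 the bar of EGFP 2 is highest, at 552 and 443.

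Csf1r, the receptor for the macrophage growth factor CSF1, read 306 and 309 in the p62-EGFP tumors, against 159 and 941 in the EGFP tumors. It rose against EGFP tumor 1 by 0.88 on the log2 scale (SE 0.16, limma adjusted p = 0.0118), but its other 2 probe sets did not, with differences of 0.36 and 0.23 (limma adjusted p = 0.320 and 0.601). Adgre1, the macrophage surface antigen F4/80, read 89.8 and 90.5 in the p62-EGFP tumors, against 56.2 and 347 in the EGFP tumors, and did not pass against EGFP tumor 1 (limma adjusted p = 0.0754). Ms4a7, a membrane protein of macrophages, read 285 and 253 in the p62-EGFP tumors, against 154 and 941 in the EGFP tumors, and rose against EGFP tumor 1. Itgam, the CD11b integrin chain, was dim, at 9.9 and 14.7 in the p62-EGFP tumors, against 5.8 and 28 in the EGFP tumors.

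Of the 3 receptors for microbial patterns, 0 passed against EGFP tumor 1. Cd14, the co-receptor for lipopolysaccharide, read 54.4 and 74.3 in the p62-EGFP tumors, against 57.2 and 96.6 in the EGFP tumors, so the groups overlapped and it passed against neither EGFP tumor. Ly86, the partner MD-1 of the receptor RP105, read 54.2 and 46.1 in the p62-EGFP tumors, against 24.9 and 383 in the EGFP tumors. Ly86 fell against EGFP tumor 2 and did not pass against EGFP tumor 1 (limma adjusted p = 0.0679). Clec4n, a receptor for fungal sugars (dectin-2), did not pass against EGFP tumor 1 either (limma adjusted p = 0.289).

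Of the scavenger and mannose receptors, Cd68 rose against EGFP tumor 1. Cd68, a glycoprotein of macrophage lysosomes, read 122 and 122 in the p62-EGFP tumors, against 68.7 and 617 in the EGFP tumors. Cd163, the scavenger of haemoglobin, read 11.3 and 28.6 in the p62-EGFP tumors, against 4.5 and 15.2 in the EGFP tumors, all below the filter. Mrc1, the mannose receptor, fell against EGFP tumor 2 and did not pass against EGFP tumor 1 (limma adjusted p = 0.359). Msr1, a receptor for modified lipoproteins, did not pass against EGFP tumor 1 (limma adjusted p = 0.109).

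All 3 chains of the complement component C1q rose against EGFP tumor 1 and fell against EGFP tumor 2. C1qa read 427 and 410 in the p62-EGFP tumors, against 248.6 and 1765 in the EGFP tumors. C1qb read 298 and 247 in the p62-EGFP tumors, against 147 and 1406 in the EGFP tumors. C1qc read 197 and 198 in the p62-EGFP tumors, against 120.3 and 1263 in the EGFP tumors. The p62-EGFP tumors lay close together between the EGFP tumors for each chain. The log2 difference from EGFP tumor 1 was 0.72 for C1qa (SE 0.16, limma adjusted p = 0.0240), 0.82 for C1qb (SE 0.18, 0.0220) and 0.65 for C1qc (SE 0.17, 0.0381). The chains are encoded side by side and assemble into 1 protein.

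Of the 5 genes of the phagosome and lysosome, 4 rose against EGFP tumor 1. Lyz2, the lysozyme of macrophages, read 644 and 686 in the p62-EGFP tumors, against 314 and 1455 in the EGFP tumors. Its log2 difference was 1.04 against EGFP tumor 1 (SE 0.15, limma adjusted p = 0.00365) and -1.11 against EGFP tumor 2, and the group difference of -0.03 is the average of these. Lyz1 read 1335 and 1239 in the p62-EGFP tumors, against 600.0 and 2299 in the EGFP tumors. Lyz1 and Lyz2 are near-identical copies, and the Lyz1 probe set used here is of the type that can bind related transcripts. The 1 Lyz1 probe set without that mark read only 8.0 and 11.4 in the p62-EGFP tumors, against 2.6 and 13.6 in the EGFP tumors, so the signal assigned to Lyz1 is uncertain.

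Ctss, the lysosomal protease cathepsin S, read 432 and 511 in the p62-EGFP tumors, against 209 and 1949 in the EGFP tumors. Among the probe sets used, it had the widest gap over EGFP tumor 1 on the log2(signal + 16) scale, at 1.11 (SE 0.17). A less bright Lyz1 probe set, also of the type that can bind related transcripts, had 1.90. In plain signal the ratio to EGFP tumor 1 was 2.26 for Ctss. It was larger for Cd163 (4.43) and Arg1 (3.72), both too dim to be tested, and for Msr1 (2.34) and Fcgr1 (2.27). Mpeg1, the pore-forming perforin-2, read 161 and 173 in the p62-EGFP tumors, against 89.0 and 1053 in the EGFP tumors, and also rose against EGFP tumor 1 (limma adjusted p = 0.0196). Cybb, the catalytic subunit of the phagocyte NADPH oxidase, did not (limma adjusted p = 0.358).

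Ccr2, the receptor that draws monocytes to CCL2, read 20.7 and 38.2 in the p62-EGFP tumors, against 13.4 and 136 in the EGFP tumors. Spi1 read 30.5 and 27.5 in the p62-EGFP tumors, against 20.5 and 203 in the EGFP tumors. EGFP tumor 2 alone carried both genes over the filter, and neither passed against EGFP tumor 1 (limma adjusted p = 0.205 and 0.437).

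How far the p62-EGFP tumors lay above EGFP tumor 1 was also expressed as a share of the gap between the EGFP tumors, in plain signal, for the 29 members with a gap over 100. The median share was 8.13%, close to the 6.80% over all 805 genes with such a gap. Lyz1 had 40.4%, Lyz2 30.7%, Mrc1 21.7%, Csf1r 18.9%, Ctss 15.1% and Ms4a7 14.6%. At the other end Itgb2 had 2.87%, Coro1a 3.01% and Ptprc 3.70%. The share of Mrc1 was 2.99% from p62-EGFP tumor 1 and 40.4% from p62-EGFP tumor 2, and the other 2 probe sets of Csf1r gave 9.64% and 6.10%, so single shares are not firm. They describe 4 tumors, with no test.

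**Figure D5:**
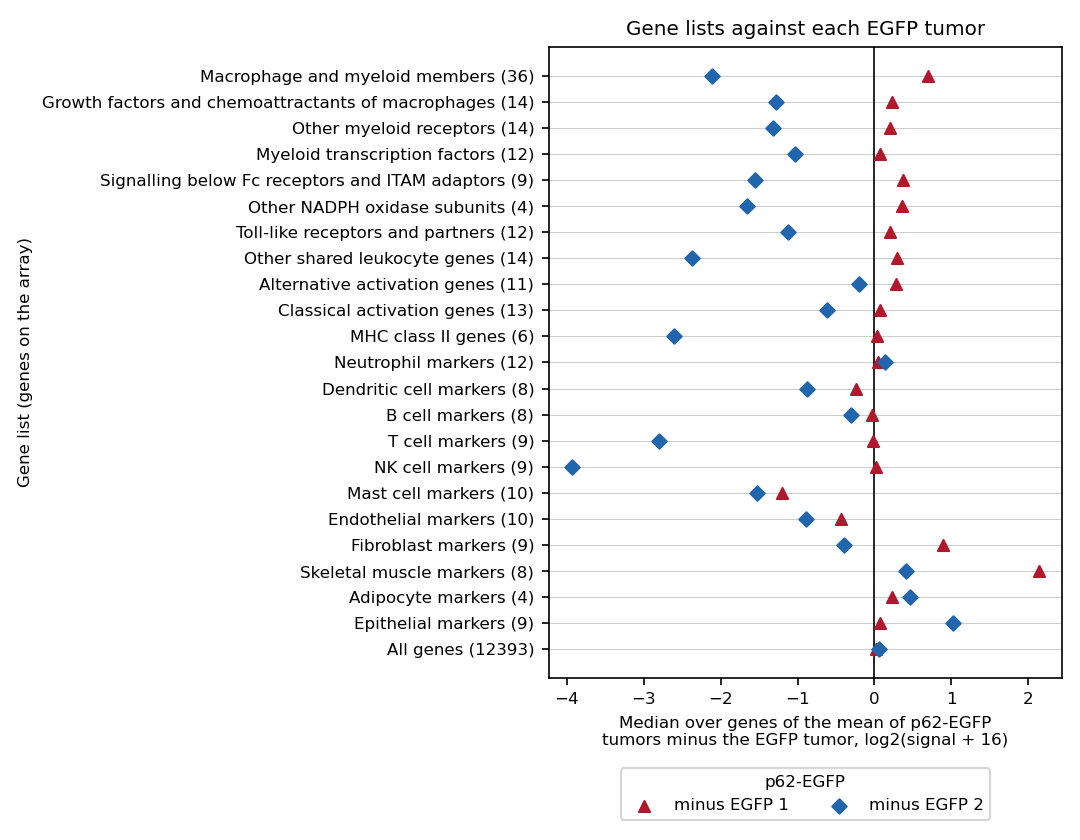
Median over each gene list of the difference between the p62-EGFP tumors and EGFP 1 (triangles) or EGFP 2 (diamonds), in log2(signal + 16), with the number of genes on the array in brackets. The macrophage and myeloid genes lie at 0.69 and -2.12, and NK cell markers at 0.02 and -3.93.

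Other genes were described from 21 lists, some of macrophage pathways and some of markers of other cell types such as fibroblasts, muscle and epithelium. Over all 4 tumors 0 genes of these lists passed in either direction (limma, adjusted p). At an unadjusted p below 0.05 (limma), 1 was higher and 13 lower among the 100 that passed the filter. At that level 8.5% of tested genes were higher and 6.3% lower. The 100 had a median log2 difference of 0.16 from EGFP tumor 1 and of -1.38 from EGFP tumor 2. Over all tested genes these medians were -0.02 and 0.07. The 14 growth factors and chemoattractants of macrophages on the array had a median of 0.23 from EGFP tumor 1, and the 9 tested ones of 0.54. Ccl8, a monocyte chemokine, read 163 and 343 in the p62-EGFP tumors, against 66.1 and 993 in the EGFP tumors. Ccl6, a chemokine made by macrophages, read 94.4 and 236 in the p62-EGFP tumors, against 49.4 and 271 in the EGFP tumors. Both rose against EGFP tumor 1 (limma adjusted p = 0.0147 and 0.0452). Ccl5, in contrast, read 45.9 and 61.4 in the p62-EGFP tumors, against 85.6 and 1056 in the EGFP tumors.

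Of the 14 other myeloid receptors on the array 5 passed the filter, and of the 12 myeloid transcription factors 7. The median log2 difference from EGFP tumor 1 was 0.20 for the receptors and 0.07 for the factors, against 0.02 over all genes. Over the tested ones it was -0.22 and -0.03, against -0.02 over all tested genes. Id2, a regulator of lymphoid and dendritic cell development, read 573 and 554 in the p62-EGFP tumors, against 265 and 729 in the EGFP tumors, and rose against EGFP tumor 1 by 1.04 on the log2 scale (limma adjusted p = 0.00395). Klf4, a factor of monocytes and of epithelia, read 292 and 365 in the p62-EGFP tumors, against 519 and 409 in the EGFP tumors, and fell against EGFP tumor 1 (limma adjusted p = 0.0495). Of 14 other shared leukocyte genes, 14 exceeded 2-fold within the EGFP pair, but 0 of the 10 tested rose against EGFP tumor 1, with a median log2 difference of 0.29. Irf8, a transcription factor of monocytes and dendritic cells, read 40.8 and 49.6 in the p62-EGFP tumors, against 53.7 and 552 in the EGFP tumors. Clec7a, the beta-glucan receptor dectin-1, read 32.1 and 32.9 in the p62-EGFP tumors, against 40.4 and 538 in the EGFP tumors. Csf2ra, the GM-CSF receptor chain, read 209 and 221 in the p62-EGFP tumors, against 375 and 434 in the EGFP tumors, and fell against EGFP tumor 1 (limma adjusted p = 0.0216).

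Of the genes of macrophage activation, bright classical and MHC class II genes were highest in EGFP tumor 2. Cxcl9, an interferon-induced chemokine, read 62.1 and 49.1 in the p62-EGFP tumors, against 26.7 and 1716 in the EGFP tumors. The invariant chain gene Cd74 read 278 and 399 in the p62-EGFP tumors, against 290 and 2843 in the EGFP tumors. The 13 classical activation genes had a median difference of 0.07 and the 6 MHC class II genes of 0.03 against EGFP tumor 1, on the log2 scale. Retnla, a gene of alternatively activated macrophages, read 47.9 and 74.5 in the p62-EGFP tumors, against 46.9 and 17.2 in the EGFP tumors, and did not pass over all 4 tumors (limma adjusted p = 0.416). Its log2 difference of 1.20 from EGFP tumor 2 alone passed (limma adjusted p = 0.00696), while that from EGFP tumor 1 did not (0.480), so its order within the EGFP pair was the reverse of that of most members.

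Markers of some other cell types were also highest in EGFP tumor 2, and their part in the macrophage result was not tested. The summed signal of the 9 NK cell markers was 80.8 and 92.3 in the p62-EGFP tumors, against 84.0 and 3245 in the EGFP tumors, and all 9 exceeded 2-fold within the EGFP pair. That of the 9 T cell markers was 133 and 137 in the p62-EGFP tumors, against 160 and 1152 in the EGFP tumors. Of these 9, 8 were past 2-fold higher in EGFP tumor 2 than in EGFP tumor 1, but only 1, Zap70, passed the filter. Zap70 went the other way, at 101 and 91.5 in the p62-EGFP tumors, against 117 and 50.9 in the EGFP tumors. Neutrophil markers summed to 90.7 and 117 in the p62-EGFP tumors, against 88.5 and 154 in the EGFP tumors. Of the 12, 0 passed the filter and 5 were higher in EGFP tumor 2 than in EGFP tumor 1, 1 past 2-fold. The 8 B cell markers summed to 58.9 and 51.9 in the p62-EGFP tumors, against 57.2 and 153 in the EGFP tumors. Of these, 1 passed the filter and 5 were higher in EGFP tumor 2 than in EGFP tumor 1, 1 past 2-fold. The 8 dendritic cell markers summed to 217 and 207 in the p62-EGFP tumors, against 270 and 634 in the EGFP tumors. Here 7 were higher in EGFP tumor 2 than in EGFP tumor 1, 2 of them past 2-fold. No marker of these lists was listed at 0 in any tumor.

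Epithelial markers ran the other way and fibroblast markers the same way. The 9 epithelial markers summed to 1652 and 2462 in the p62-EGFP tumors, against 1906 and 742 in the EGFP tumors, so EGFP tumor 2 had the least. The 9 fibroblast markers summed to 2146 and 2930 in the p62-EGFP tumors, against 1062 and 3625 in the EGFP tumors, and 5 of the 9 rose against EGFP tumor 1. Col1a2, a chain of type I collagen, read 622 and 803 in the p62-EGFP tumors, against 235 and 858 in the EGFP tumors. By summed signal the p62-EGFP tumors thus lay between the EGFP tumors for fibroblast genes, as for most macrophage genes, but in a different place. Their median log2 difference from EGFP tumor 2 was -0.39 for the fibroblast markers and -2.12 for the 36 macrophage genes. From EGFP tumor 1 it was 0.90 and 0.69. Mast cell and endothelial markers summed to 142 to 335 in the p62-EGFP tumors and to 486 to 756 in the EGFP tumors. The 8 skeletal muscle markers summed to 3605 and 55.1 in the p62-EGFP tumors, against 42.7 and 684 in the EGFP tumors. All 8 were higher in EGFP tumor 2 than in EGFP tumor 1, and p62-EGFP tumor 1 stood far above the rest. The part of muscle or other surrounding tissue in the macrophage values was not tested.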

How the data were processed

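Total RNA of 4 tumors (2 p62-EGFP, 2 EGFP) was hybridised as biotin-labelled cRNA to Affymetrix arrays, 1 per tumor. The deposited values are linear signal intensities, and the tool is MAS5 per the submitters' processing notes. Its version was not stated. The authors' values were already scaled (mean after trimming 2% at each end 150.04 on every array) and were used as deposited. Of 22690 probe sets, 64 controls were left out, and 20380 had exactly 1 symbol in the array annotation.

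Signals were taken as log2(signal + 16), a scale that understates the change of dim genes. The 13576 probe sets with a mean at or above the 40th percentile were tested with lmFit and eBayes (trend) in R 4.3.3 (limma 3.58.1), as a two-sided test adjusted over all of them by Benjamini-Hochberg. The series' design text names Genes@Work, not installed here. The fit was checked on simulated data. A filter on the mean over all tumors can be passed through EGFP tumor 2 alone. With 2 tumors against 2 the smallest p an exact permutation test can give is 0.333. Descriptions and figures were made in Python 3.11.15 with pandas 2.3.3, numpy 2.4.6, matplotlib 3.10.9 and scipy 1.17.1.

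The members and lists were chosen with earlier results of these data known. Every member is named. Of the other lists, values come from the 3 brightest tested genes. Alternatives covered scaling, pseudocount, filter, variance model, averaging of probe sets, a replicate block and leaving out each tumor. The number of arrays limits the precision.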

Additional observations from a re-analysis of the deposited data

How the results depend on the processing

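Of the tested members 0 passed in any setting that kept all 4 tumors: quantile normalization, median centring, pseudocounts of 1 and 64, no filter, a filter at the 60th percentile, no variance trend, averaged probe sets and the replicate block. The lowest adjusted p of a member in those settings was 0.338, with averaged probe sets (limma). With the replicate block it was 0.419. The shared replicate numbers do not show a pairing (correlation of the deviations 0.0823 over 13576 probe sets), and the block changed no call. With averaged probe sets 1 member had both p62-EGFP tumors below both EGFP tumors. With median centring the log2 difference of Lyz2 was 0.0040, against -0.03 as reported.

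Leaving out 1 tumor at a time decided the result. The count of members past the threshold ran from 0, without either p62-EGFP tumor, to 30, all lower, without EGFP tumor 1, and was 17, all higher, without EGFP tumor 2. The median over the 36 ran from -2.12 without EGFP tumor 1 to 0.69 without EGFP tumor 2. Genes with no overlap between groups numbered 3 to 35 in these fits, with 2 to 34 higher and 0 to 33 lower. Such counts rise with only 1 tumor in a group. Over all genes, 41.2% had both p62-EGFP tumors above EGFP tumor 1, and 33.1% had both below EGFP tumor 2. The sign of the log2 difference turned for 31 genes, for 30 of them without EGFP tumor 2, for Lyz1 without EGFP tumor 1, and for Mrc1 and Lyz2 also without p62-EGFP tumor 1. It ran from -1.77 to 0.56 for Adgre1, -3.16 to 0.69 for Aif1, -2.04 to 0.72 for C1qa, -2.31 to 0.82 for C1qb, -2.58 to 0.65 for C1qc, -1.77 to 0.60 for Ccr2, -0.50 to 0.12 for Cd14 and -3.24 to 0.76 for Cd52. The range was -2.76 to 0.46 for Cd53, -2.20 to 0.71 for Cd68, -1.18 to 0.41 for Clec4n, -3.06 to 0.37 for Coro1a, -1.57 to 0.88 for Csf1r, -2.01 to 1.11 for Ctss, -2.67 to 0.36 for Cybb and -3.11 to 0.79 for Fcer1g. Likewise it was -2.64 to 0.89 for Fcgr1, -1.87 to 0.80 for Fcgr3, -3.54 to 0.52 for Itgb2, -2.70 to 0.77 for Laptm5, -2.55 to 0.88 for Lcp1, -2.59 to 0.69 for Ly86, -0.83 to 1.08 for Lyz1 and -1.11 to 1.04 for Lyz2. It was -2.55 to 0.80 for Mpeg1, -0.94 to 0.37 for Mrc1, -1.75 to 0.74 for Ms4a7, -1.93 to 0.67 for Msr1, -3.40 to 0.66 for Ptprc, -2.28 to 0.30 for Spi1 and -2.52 to 0.61 for Tyrobp. Counting only the 28 members that reach the filter without the signal of EGFP tumor 2, a choice made after seeing the data, left 25 lower than EGFP tumor 2 and 17 higher than EGFP tumor 1. Signals near the level of Itgam, Cd163 and Arg1 are too dim for a test.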
